A study of Mus musculus with 6 samples.

Results

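The mitogen-activated protein kinase (MAPK) phosphatases are represented here by 10 genes of the dual-specificity phosphatase family, Dusp1, Dusp2, Dusp4, Dusp5, Dusp6, Dusp7, Dusp8, Dusp10, Dusp14 and Dusp16. They were found by their GENCODE M21 symbols among 55335 gene identifiers in a count table of bone marrow-derived macrophages (BMDMs), and 10 of 10 had enough counts to be tested. The table holds 6 libraries of total RNA from C57BL/6 BMDMs. The cells were grown from femur and tibia marrow of mice, young adult males by the study's methods, in medium conditioned by L929 cells. The library names mark all 6 libraries as wild type (WT). PBS was given in 3 of these as the control and LPS, a bacterial cell wall component sensed by Toll-like receptor signaling, in the other 3, and treatment lasted 1 h in both groups. Library totals ranged from 37787611 to 41516330 counts, and a count of 3 corresponded to 0.0630 to 0.0919 CPM (counts scaled to a common library total). The labels number the libraries of each group 1 to 3 and also call these numbers batches, but do not state whether the libraries of a group came from separate mice, so the p-values measure the spread between these libraries. In bulk RNA, fewer cells of a type and less RNA per cell cannot be told apart.

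LPS activates the ERK, JNK and p38 branches of MAPK signaling in macrophages, each through a chain in which a MAP3 kinase phosphorylates a MAP2 kinase and this phosphorylates the MAPK on a threonine and a tyrosine. Dual-specificity MAPK phosphatases remove both phosphates and so switch the MAPK off. Most carry a docking domain that selects the MAPK beside the catalytic domain. Dusp1, Dusp2, Dusp4 and Dusp5 encode nuclear enzymes known as products of inducible genes, Dusp6 and Dusp7 cytoplasmic enzymes that prefer ERK, and Dusp8, Dusp10 and Dusp16 enzymes that prefer JNK and p38. Dusp14 encodes a small atypical member without the docking domain.

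The cells carried the label's identity and the mark of the stimulus. All 8 macrophage markers were detected, with summed levels of 29945 to 31229 CPM in PBS and 35887 to 36245 CPM in LPS libraries, and of these Cd14 alone passed the criteria given below, from 398 ± 7.53 to 3623 ± 45.5 CPM (mean ± SD, n = 3). Tnf, the inflammatory cytokine used as a check of the stimulus, stood at 20.2 ± 1.19 CPM in PBS and 2300 ± 49.8 CPM in LPS libraries (n = 3). Summed markers of T cells did not exceed 1.44 CPM in any library, those of B cells 3.40, of NK cells 0.797 and of erythroid cells 0.268. The study's methods name a globin version of the library kit, so the globin genes Hba-a1 and Hbb-bs say little about erythroid cells. Neutrophil markers summed to 36.8 to 39.2 CPM in PBS and 49.3 to 51.3 CPM in LPS libraries, mast cell markers to 5.52 to 6.81 and 9.99 to 10.8 CPM, and fibroblast markers to 9.52 to 10.6 and 11.96 to 14.6 CPM. Dendritic cell markers moved with the treatment, from 1.37 to 1.67 CPM in PBS to 5.36 to 6.56 CPM in LPS libraries. Of these, 4 of 4 passed the criteria, beside 20.9% of all tested genes, though Xcr1 had only 2, 1 and 2 counts in PBS. Of the 4 fibroblast markers, Pdgfrb passed as well (log2 fold change 1.31). The part of dendritic or other cells in the phosphatase results was not tested.

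The promoters of 5 phosphatase genes are shown, those of Dusp1 and Dusp8 for the complete cAMP response element, that of Dusp5 for its CArG boxes, that of Dusp2 because its response was not separated from that of Dusp5, and that of Dusp6 because it was the gene that fell. Promoter windows from RefSeq (GRCm38.p6), each with 250 bases before and 50 after the annotated start, were matched for 9 of 10 members (Dusp4 was not matched) and were searched on both strands for the cAMP response element (TGACGTCA), the shorter TGACG that it contains, the AP-1 site (TGANTCA), the NF-kB site and the CArG box by name, and TATAAA. The window of Dusp1 lies at chr17:26508423-26508722 (minus strand), that of Dusp8 at chr7:142095235-142095534 (minus) and that of Dusp5 at chr19:53528895-53529194 (plus). The window of Dusp2 lies at chr2:127335909-127336208 (plus) and that of Dusp6 at chr10:99262981-99263280 (plus). Sequences run 5′ to 3′ on the gene's strand, and capitals mark motif matches, with CGTCA as TGACG on the other strand.
Dusp1: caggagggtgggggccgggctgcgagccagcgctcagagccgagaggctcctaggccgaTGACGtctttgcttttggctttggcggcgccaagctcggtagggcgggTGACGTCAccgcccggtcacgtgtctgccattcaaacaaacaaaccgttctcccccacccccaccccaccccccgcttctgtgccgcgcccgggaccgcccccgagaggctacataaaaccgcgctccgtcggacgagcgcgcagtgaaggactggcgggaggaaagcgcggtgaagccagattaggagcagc
Dusp8: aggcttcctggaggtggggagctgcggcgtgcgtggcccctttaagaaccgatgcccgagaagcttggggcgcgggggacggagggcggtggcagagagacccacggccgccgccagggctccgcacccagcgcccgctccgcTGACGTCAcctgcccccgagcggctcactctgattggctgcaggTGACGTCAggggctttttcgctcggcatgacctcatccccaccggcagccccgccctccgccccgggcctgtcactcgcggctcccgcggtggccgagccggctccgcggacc
Dusp5: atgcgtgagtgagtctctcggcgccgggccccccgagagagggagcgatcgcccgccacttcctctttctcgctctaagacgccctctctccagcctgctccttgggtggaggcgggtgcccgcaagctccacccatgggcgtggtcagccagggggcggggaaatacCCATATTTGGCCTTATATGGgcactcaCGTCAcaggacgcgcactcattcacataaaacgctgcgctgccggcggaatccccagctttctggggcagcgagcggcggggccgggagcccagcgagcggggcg
Dusp2: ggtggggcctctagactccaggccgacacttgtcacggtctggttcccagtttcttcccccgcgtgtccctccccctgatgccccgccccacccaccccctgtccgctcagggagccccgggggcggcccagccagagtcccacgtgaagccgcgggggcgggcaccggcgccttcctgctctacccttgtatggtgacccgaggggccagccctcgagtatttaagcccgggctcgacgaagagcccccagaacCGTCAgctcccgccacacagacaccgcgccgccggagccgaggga
Dusp6: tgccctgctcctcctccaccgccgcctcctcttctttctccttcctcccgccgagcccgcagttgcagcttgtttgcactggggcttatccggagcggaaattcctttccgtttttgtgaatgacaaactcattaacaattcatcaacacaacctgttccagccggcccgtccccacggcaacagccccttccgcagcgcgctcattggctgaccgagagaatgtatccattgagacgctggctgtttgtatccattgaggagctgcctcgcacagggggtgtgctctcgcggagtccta

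The complete cAMP response element was found in 2 of 9 member windows, against 1.79% of 32851 windows of the same length. In Dusp1 it began 143 bases before the start, and in Dusp8 2 copies began 107 and 63 bases before it, where 0.0396% of all windows hold 2 or more. The shorter TGACG was found in 5 member windows (Dusp1, Dusp2, Dusp5, Dusp8 and Dusp16), against 20.8% of all windows. Dusp5 was the 1 member with a CArG box, the motif of serum response factor, and held 2 adjoining copies 82 and 72 bases before the start. Of all windows, 1.63% hold a CArG box and 0.0183% hold 2 or more. The letters of the AP-1 site, the NF-kB site and TATAAA were in 0 member windows, against 7.81%, 4.51% and 13.6% of all windows. None of the motifs was found in 4 windows, those of Dusp6, which fell, Dusp14, which rose, and Dusp7 and Dusp10. A match describes the letters only. The GENCODE gene model starts further upstream than the RefSeq start used for the window by 53656 bp in Dusp1, 21079 bp in Dusp10, 904 bp in Dusp14, 559 bp in Dusp8 and 36 bp in Dusp5, so that the matches in Dusp1 and Dusp8 lie downstream of the GENCODE start.

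Most phosphatase genes rose strongly within 1 h of LPS and 1 fell. The criteria were those of the study, an adjusted p below 0.05 and an absolute log2 fold change above 1, here from edgeR's quasi-likelihood test on 15687 genes with p-values adjusted after Benjamini and Hochberg. Of the 10 members, 7 were higher in LPS (Dusp1, Dusp2, Dusp4, Dusp5, Dusp8, Dusp14 and Dusp16), 1 was lower (Dusp6), and Dusp7 and Dusp10 did not pass the fold criterion. Thus 80.0% of members passed, while the same criteria took 20.9% of all tested genes, 10.5% as higher and 10.4% as lower. The adjusted p alone was below 0.05 for 10 of 10 members and for 67.7% of all tested genes, and the normalized CPM of the groups did not overlap for 10 of 10 members and for 70.5% of all tested genes. The median log2 fold change was 4.10 for the members, with a range from -1.67 to 10.07, and -0.01 for all tested genes. The members were chosen with results of these data known, so that these counts are a description. Dusp14, with 1, 1 and 0 counts in PBS, passed the count filter only through its LPS libraries. Its call as higher and its lack of overlap therefore largely follow from the filter.

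**Figure D1:**
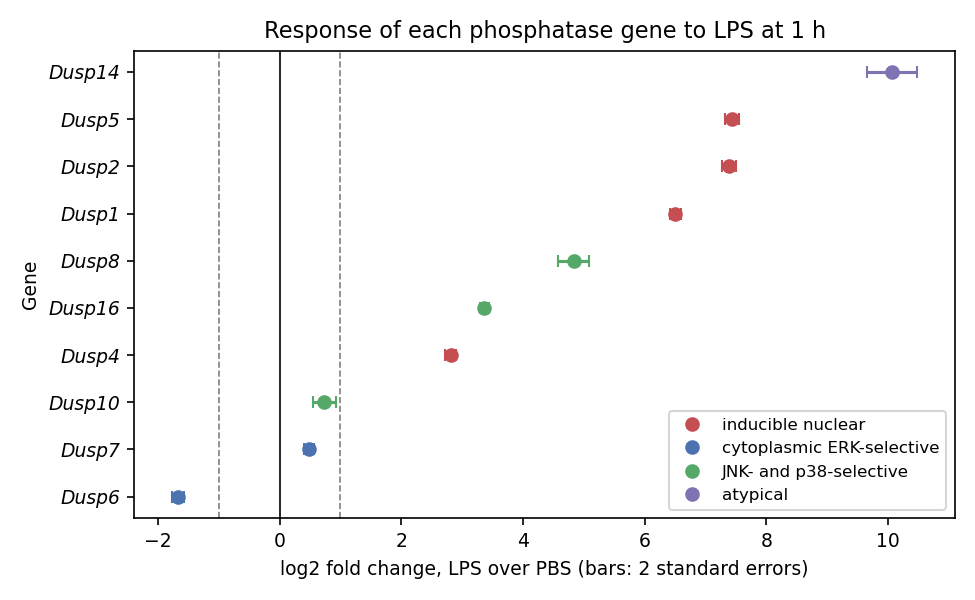
Log2 fold change (LPS over PBS, x axis) of the 10 phosphatase genes (y axis) at 1 h, with bars of 2 standard errors, colors for the subgroup and dashed lines at the fold criterion of 1 in either direction. Dusp14 stands at 10.07, Dusp5 and Dusp2 at 7.44 and 7.39 with overlapping bars, and Dusp6 at -1.67 is the only gene below the lower line. The bar of Dusp14 is narrower than its counting error.

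Among the inducible nuclear phosphatases, all 4 rose. Dusp1 (ENSMUSG00000024190.7, chr17:26505590-26562128) encodes the phosphatase best known for limiting p38 and JNK activity in LPS-treated macrophages. Its normalized level was 13.6, 14.5 and 14.1 CPM in the PBS libraries and 1239, 1334 and 1254.5 CPM in the LPS libraries. The groups were far apart, with little spread inside either. The mean went from 14.0 ± 0.456 to 1276 ± 50.8 CPM (SD, n = 3), 90.8-fold higher in the fit (log2 fold change 6.51, SE 0.05, adjusted p = 4.99e-24). By level per kb of exon, Dusp1 moved from rank 6836 to rank 117 of the 15687 tested genes.

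Dusp2 (ENSMUSG00000027368.6, chr2:127336159-127338376), a nuclear phosphatase described mainly in leukocytes, was counted 102, 115 and 122 times in PBS libraries. It was counted 14027, 13680 and 13303 times in LPS libraries. Every LPS library was therefore above every PBS library by a wide margin. Its level went from 2.44 ± 0.266 to 409 ± 16.0 CPM (SD, n = 3), with a log2 fold change of 7.39 (SE 0.06, adjusted p = 9.75e-24). Dusp5 (ENSMUSG00000034765.6, chr19:53529109-53542431), a nuclear phosphatase that acts on ERK, responded by the same order. It was at 2.77, 3.41 and 3.34 CPM in PBS and 555, 566 and 528 CPM in LPS libraries. The mean rose from 3.17 ± 0.349 to 550 ± 19.4 CPM (SD, n = 3), 173-fold (log2 fold change 7.44, SE 0.06, adjusted p = 7.34e-24). Dusp5 and Dusp2 were not separated in their response, with a difference of 0.05 in log2 fold change against a combined SE of 0.08.

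Dusp4 (ENSMUSG00000031530.6, chr8:34807297-34819894), the nuclear phosphatase closest in kind to Dusp1, was already expressed in PBS libraries. Its level was 29.9, 28.2 and 28.0 CPM there and 206, 209 and 190 CPM in LPS libraries. The groups did not overlap. The mean rose from 28.7 ± 1.03 to 202 ± 10.1 CPM (SD, n = 3), 7.03-fold (log2 fold change 2.81, SE 0.04, adjusted p = 9.16e-20), the lowest response of the 4 nuclear genes.

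The cytoplasmic ERK phosphatases went apart. Dusp6 (ENSMUSG00000019960.8, chr10:99263231-99267489), a feedback phosphatase of ERK, stood at 41.6, 40.5 and 42.0 CPM in PBS libraries. It stood at 13.5, 12.9 and 12.6 CPM in LPS libraries. All LPS libraries lay below all PBS libraries. Its mean fell from 41.4 ± 0.798 to 13.0 ± 0.476 CPM (SD, n = 3), 3.18-fold (log2 fold change -1.67, SE 0.05, adjusted p = 2.43e-15). Dusp7 (ENSMUSG00000053716.9, chr9:106368632-106375724), its closest relative of the set, was at 49.9, 53.4 and 52.6 CPM in PBS and 68.4, 76.7 and 72.7 CPM in LPS libraries. The 1.40-fold difference (log2 fold change 0.48, SE 0.04, adjusted p = 2.62e-08) did not reach the fold criterion. It depended on the scaling: with library size alone, which shifts the median log2 fold change of all tested genes by -0.404, the log2 fold change of Dusp7 was 0.08 with an adjusted p of 0.115 in the same test.

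Of the 3 JNK- and p38-selective phosphatases, 2 passed the criteria as higher. Dusp16 (ENSMUSG00000030203.17, chr6:134715468-134792625), a phosphatase of JNK and p38 that shuttles between nucleus and cytoplasm, was at 12.8, 12.7 and 12.7 CPM in PBS and 130, 131 and 133 CPM in LPS libraries. Relative to its mean, it had the least spread of the members in both groups. The mean rose 10.3-fold, from 12.7 ± 0.0547 to 131 ± 1.69 CPM (SD, n = 3; log2 fold change 3.37, SE 0.04, adjusted p = 1.66e-21). Dusp8 (ENSMUSG00000037887.11, chr7:142079490-142095843), better known from brain and heart, was counted only 27, 21 and 20 times in PBS libraries and 437, 468 and 501 times in LPS libraries. All libraries were above the floor of 3 counts and the groups were clear of each other. Its level rose from 0.488 ± 0.0699 to 14.0 ± 0.891 CPM (SD, n = 3), 28.5-fold (log2 fold change 4.83, SE 0.13, adjusted p = 2.55e-16). Dusp10 (ENSMUSG00000039384.8, chr1:184013302-184075636), a phosphatase of JNK and p38, was counted 165, 157 and 174 times in PBS and 191, 199 and 207 times in LPS libraries. Its level was 3.57 ± 0.174 and 5.96 ± 0.230 CPM (SD, n = 3), without overlap. The 1.67-fold difference (log2 fold change 0.74, SE 0.10, adjusted p = 2.69e-06) stayed under the fold criterion, and was 0.33 (adjusted p = 0.00449) with library size alone.

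The atypical Dusp14 (ENSMUSG00000018648.15, chr11:84048041-84069261) went from nearly no counts to a moderate level. It was counted 1, 1 and 0 times in PBS libraries and 603, 610 and 676 times in LPS libraries. In the LPS libraries its level was 18.0, 18.7 and 19.9 CPM. Expression in PBS was thus at or below the floor in every library, while all LPS libraries were well above it. The ratio of summed counts, scaled by the summed TMM-adjusted library sizes, was 1309. Its exact (Clopper-Pearson) 95% interval of 362 to 10818 covers counting error only. edgeR's quasi-likelihood test gave a log2 fold change of 10.07 (SE 0.21, adjusted p = 5.77e-18), whose size depends on the prior count of the fit. The SE, taken from the F statistic, is too narrow beside that interval, since the PBS libraries held 2 counts in total. The median of the members does not rest on this log2 fold change.

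In the order of the log2 fold changes, each neighboring pair other than Dusp5 and Dusp2 differed by more than 2 combined SE. For Dusp14 this SE is narrower than its counting error. The low end of its 95% interval of the ratio, 362, still lay above the 173-fold rise of Dusp5. The order ran from Dusp14 over Dusp5, Dusp2, Dusp1, Dusp8, Dusp16, Dusp4, Dusp10 and Dusp7 to Dusp6. Within the numbered batches, the log2 ratio of LPS to PBS was 6.48 to 6.53 for Dusp1, 7.21 to 7.61 for Dusp2, 7.31 to 7.65 for Dusp5 and 2.77 to 2.89 for Dusp4. It was 4.52 to 5.09 for Dusp8, 3.34 to 3.39 for Dusp16 and 9.72 to 9.74 for Dusp14 in the 2 batches with a PBS count. The Dusp14 ratios each rest on 1 PBS count, so their closeness does not measure spread. The batch with 0 PBS counts gave no ratio. Dusp6 kept its negative sign in each batch, between -1.74 and -1.62, and Dusp7 and Dusp10 were between 0.46 and 0.81.

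Levels of different genes were compared as normalized CPM per kb of annotated exon. In PBS libraries Dusp7 was the most abundant at 15.5 ± 0.555 CPM per kb, followed by Dusp6 at 13.2 ± 0.255, Dusp4 at 10.5 ± 0.375 and Dusp1 at 4.24 ± 0.138 (SD, n = 3). Dusp16 followed at 1.63 ± 0.00701 CPM per kb. Dusp5, Dusp2 and Dusp10, at 1.28, 1.22 and 1.17, overlapped in their libraries and were not distinguishable in level, and Dusp8 (0.1003) and Dusp14 (0.00739) were lowest. In LPS libraries the order was different and no neighbors overlapped at this gene length. Dusp1 led at 385 ± 15.3 CPM per kb, before Dusp5 at 222 ± 7.86, Dusp2 at 204 ± 7.98 and Dusp4 at 73.7 ± 3.68 (SD, n = 3). Dusp7 (21.6), Dusp16 (16.8), Dusp14 (9.69), Dusp6 (4.15), Dusp8 (2.88) and Dusp10 (1.96) followed. The order of Dusp5 and Dusp2 in both groups, and that of Dusp7 and Dusp16 in LPS libraries, turned when the longest transcript was taken as the length.

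**Figure D2:**
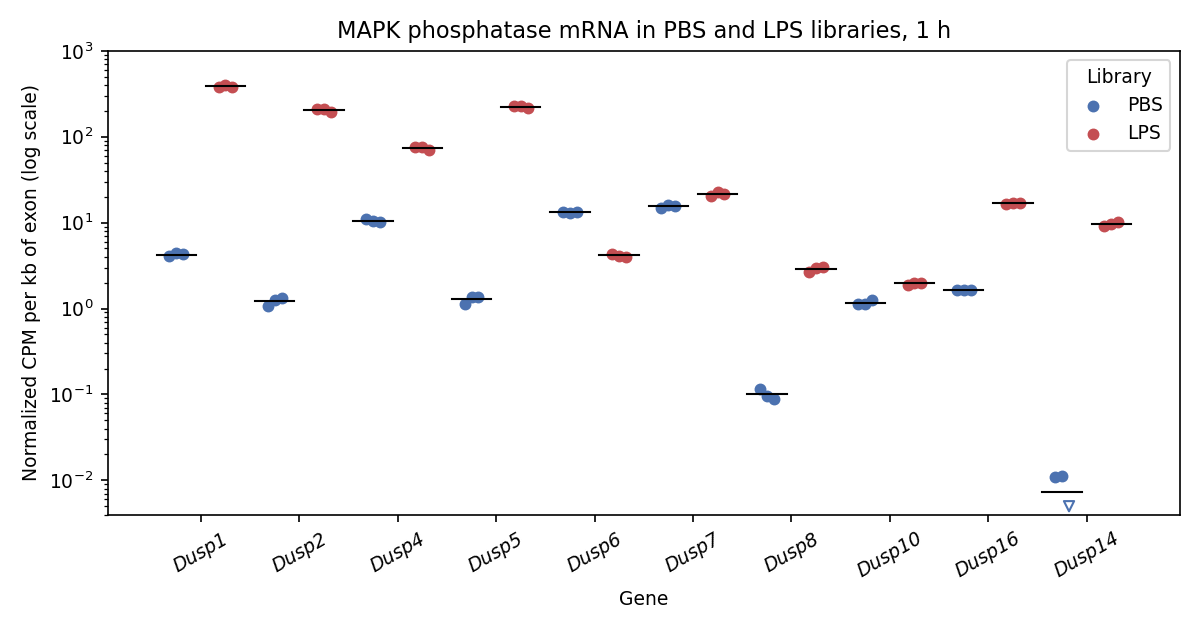
Normalized CPM per kb of exon (log scale, y axis) of each phosphatase gene (x axis) in the 3 PBS (blue) and 3 LPS (red) libraries, with a black line at each group mean and an open triangle for the PBS library in which Dusp14 had 0 counts. The red points of Dusp1, Dusp2, Dusp4 and Dusp5 lie highest at 385, 204, 73.7 and 222 CPM per kb on average, and Dusp6 is the only gene whose red points lie below its blue points.

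The summed level of the 10 genes was 48.8 ± 0.495 CPM per kb in PBS and 943 ± 30.6 in LPS libraries (SD, n = 3), a ratio of 19.3. The inducible nuclear genes made up 35.3% of this sum in PBS and 93.9% in LPS libraries, and their own sum went from 17.2 ± 0.103 to 886 ± 30.2 CPM per kb. The cytoplasmic pair made up 58.8% and then 2.74%. In absolute terms, Dusp6 and Dusp7 together were at 28.2 to 29.1 CPM per kb in PBS and 24.7 to 27.0 in LPS libraries, a ratio of 0.899 (0.679 with library size alone). This sum joined Dusp6, which fell 3.18-fold, with Dusp7, which was 1.40-fold higher without reaching the fold criterion. The JNK- and p38-selective genes together went from 2.90 ± 0.0489 to 21.7 ± 0.457 CPM per kb, a ratio of 7.46, while their share went from 5.95% to 2.30%.

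By single gene, Dusp7 held 31.7% of the sum in PBS libraries, Dusp6 27.1% and Dusp4 21.5%, while Dusp1 held 8.69 ± 0.213%. In LPS libraries Dusp1 held 40.9 ± 0.834%, Dusp5 23.6%, Dusp2 21.7% and Dusp4 7.81%, and Dusp6 had 0.441%. The share of Dusp4 was thus lower in LPS libraries although its own level rose 7.03-fold. With the longest transcript as the length in place of all exons, the share of Dusp1 was 11.2% in PBS and 47.1% in LPS libraries. Dusp2 then stood above Dusp5 in PBS (2.79% and 2.37%) and in LPS libraries (21.6% and 19.0%), and Dusp16 above Dusp7 in LPS libraries (2.20% and 1.93%).

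**Figure D3:**
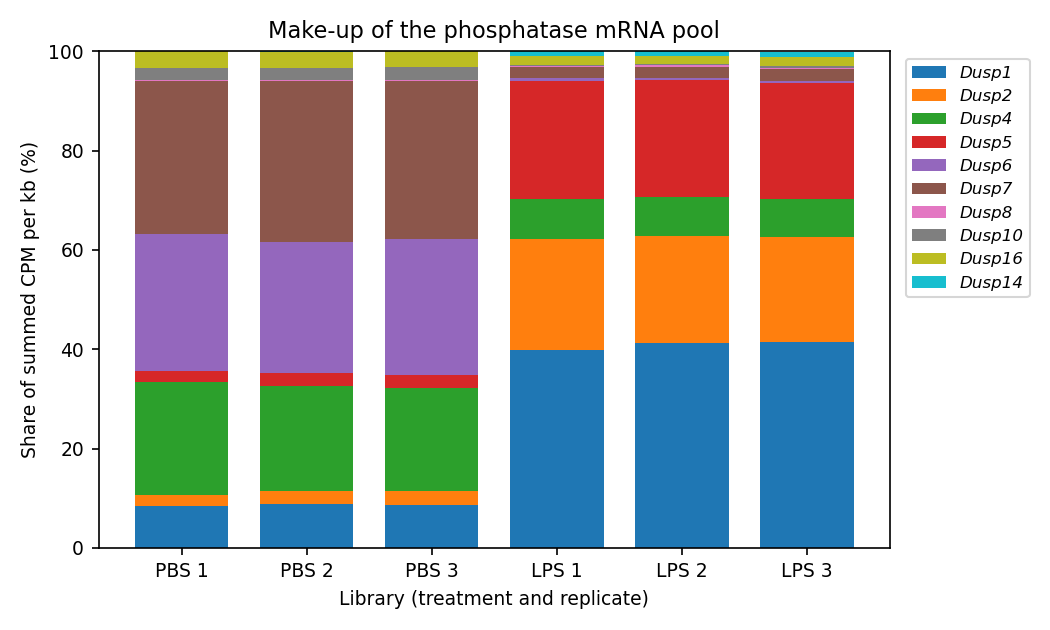
Share of each phosphatase gene in the summed CPM per kb (%, y axis) in each of the 6 libraries (x axis, treatment and replicate number), as stacked bars with a color for each gene. Dusp7, Dusp6 and Dusp4 fill most of the PBS bars (31.7%, 27.1% and 21.5% on average), and Dusp1, Dusp5 and Dusp2 most of the LPS bars (40.9%, 23.6% and 21.7%).

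The other genes of the pathway were taken from 7 lists set by role, with 97 genes of which 81 were tested. Of these, 22 were higher in LPS, 2 were lower and 57 did not pass both criteria, so that 29.6% passed beside 20.9% of all tested genes, and their median log2 fold change was 0.21. Of 9 tested MAP kinases, 2 were higher, 1 was lower and 6 were not called (33.3% called, beside 20.9% of all tested genes), with a median of 0.02. Mapk6, an atypical MAPK, rose from 101 to 518 CPM (log2 fold change 2.36, SE 0.03, adjusted p = 2.35e-20), and Mapk8, which encodes a JNK, from 15.7 to 35.1 CPM (1.16, SE 0.06, adjusted p = 8.75e-12). With library size alone the log2 fold change of Mapk8 was 0.76 and the gene was not called. Mapk7, the gene of ERK5, fell from 31.6 to 13.8 CPM (log2 fold change -1.20, SE 0.06, adjusted p = 1.29e-12). Mapk14 (p38 alpha), a substrate of some of these phosphatases and named after its value was seen, was at 128 CPM in PBS and 127 CPM in LPS libraries (log2 fold change -0.00335, SE 0.03).

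Among the upstream kinases, 1 of 7 tested MAP2 kinases passed (14.3%, beside 20.9% of all tested genes). This was Map2k3, a kinase of p38, which rose from 34.5 to 199 CPM (log2 fold change 2.53, SE 0.04, adjusted p = 3.25e-20). Of 21 tested MAP3 kinases and TAB partners, 3 were higher and 1 was lower (19.0%), with a median of -0.00534. Map3k6 rose from 3.77 to 15.7 CPM (log2 fold change 2.06), Map3k14, the NIK kinase of noncanonical NF-kB signaling, from 32.3 to 75.8 CPM (1.23), and Map3k5, named after its value was seen, from 27.1 to 63.5 CPM (1.23). The calls of Map3k14 and Map3k5 were lost with library size alone, at 0.83 and 0.82. Tab1, the partner of the kinase TAK1, fell from 30.1 to 11.3 CPM (log2 fold change -1.41, SE 0.07, adjusted p = 6.01e-12). Downstream, 2 of 10 tested MAPK-activated kinases rose and 0 fell (20.0%). These 3 lists are short, so the shares called were read as near the 20.9% of all tested genes. Mapkapk3 went from 61.2 to 178 CPM (log2 fold change 1.54) and Mapkapk2, the p38-activated kinase that stabilizes cytokine mRNA, from 338 to 896 CPM (1.41).

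Of the 11 other tested dual-specificity phosphatases, 0 passed both criteria in edgeR's test, beside 20.9% of all tested genes. An adjusted p below 0.05 was reached by 6, beside 67.7% of all tested genes. The median log2 fold change of the 11 was -0.08. They include Dusp9, a further MAPK phosphatase related to Dusp6 and Dusp7 and named after its value was seen, at 1.81 CPM in PBS and 1.96 CPM in LPS libraries (log2 fold change 0.11, SE 0.15, adjusted p = 0.526). Other brakes on the pathway are the Sprouty and Spred inhibitors of Ras and ERK signaling and the MAPK tyrosine phosphatases. Of 7 tested, 5 were higher and 0 lower (71.4%, beside 20.9% of all tested genes, median 1.79). Spry1 rose from 0.108 to 4.65 CPM (log2 fold change 5.39, SE 0.22, adjusted p = 2.83e-13). It had only 4, 6 and 5 counts in the PBS libraries, just above the floor of 3 counts. Spred2 rose from 6.43 to 43.6 CPM (2.76, SE 0.06, adjusted p = 7.95e-18). Spry4, Spry2 and Spred1, named after their values were seen, had log2 fold changes of 3.32, 1.79 and 1.26, and Spred1 was not called with library size alone (0.86). Ptpn7, named likewise, lay just inside the fold criterion at -0.99 and passed it in some alternatives. The list of transcription factors described as MAPK targets had 9 higher and 0 lower genes of 16 (56.2%, beside 20.9% of all tested genes, median 2.67). The part of MAPK signaling in these values was not tested. Fosb rose from 0.747 to 471 CPM (log2 fold change 9.30, SE 0.10, adjusted p = 3.15e-22) and Fosl2 from 25.97 to 838 CPM (5.01, SE 0.04, adjusted p = 7.36e-24), and the other 7 that rose were Junb, Egr3, Egr1, Myc, Fosl1, Egr2 and Fos, named after their values were seen.

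**Figure D4:**
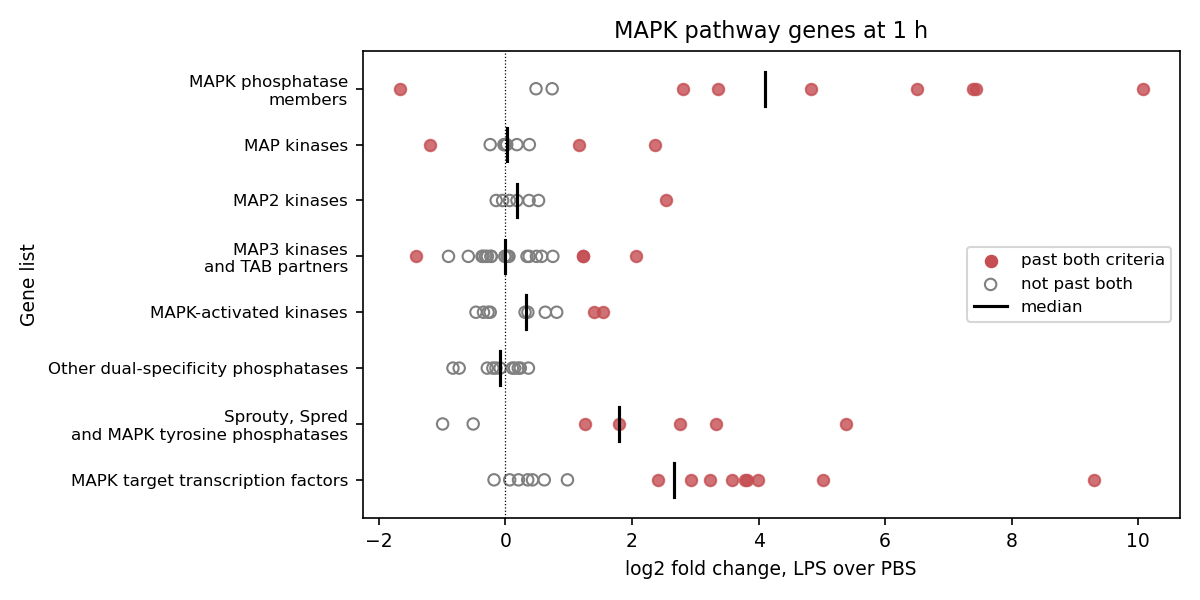
Log2 fold change (LPS over PBS, x axis) of each tested gene in the phosphatase set and the 7 lists of MAPK pathway genes (y axis), with filled points past both criteria, open points not past both, and a line at each median. The medians of the phosphatases (4.10), the MAPK target transcription factors (2.67) and the Sprouty list (1.79) lie to the right, and those of the kinase lists lie between -0.00534 and 0.332.

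Genes that share sequence positions with a member limit its count, since the strand setting of the counting is not given in the sources used here. An annotated gene overlapped 5 members. The antisense AC137853.2 shares 547 of the 2473 exonic bp of Dusp5 and had 1, 5 and 0 counts in PBS and 33, 20 and 18 counts in LPS libraries, against at least 17972 counts of Dusp5 in each LPS library. Ergic1 shares 11 bp with Dusp1 on the other strand and Gm32786 shares 66 bp with Dusp8 and had at most 1 count per library. The genes over Dusp10 and Dusp16 share 0 exonic bp with them.

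Of the 20 tested genes next to the members, 3 were higher in LPS and 0 lower (15%, beside 20.9% of all tested genes). Astl, an oocyte protease gene that lies 263 bp beyond Dusp2, had 2, 2 and 2 counts in PBS and 134, 145 and 153 counts in LPS libraries (log2 fold change 6.54, SE 0.25, adjusted p = 7.68e-14). Reads of Dusp2 and Astl were not told apart here beyond the deposited counting. The other two are given among the closing observations.

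Among protein-coding genes outside the set with a mean of at least 50 counts, likeness was taken as the root mean square difference of log2 CPM, centered on the PBS mean, over the 6 libraries. For Dusp14, the member with the highest log2 fold change, the nearest were Nr4a3 (difference 0.443), Ifnb1 (0.481) and Cxcl2 (0.654), where the value of Dusp14 depends on the 0.5 added to its near-zero PBS counts. For Dusp6, the member that fell, they were Mief2 (0.0414), Zfp58 (0.0422) and Rsrp1 (0.0456).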

How the data were processed

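Total RNA of BMDMs was sequenced in 6 libraries (3 PBS, 3 LPS), grouped by the sample labels. Per the labels and the study's methods, paired-end reads were mapped on GRCm38 by the authors (HISAT2 2.1.0, with FastQC 0.11.9 and SAMtools 1.17), who deposited raw counts per gene from featureCounts 2.0.0. The annotation release, strand setting and handling of multi-mapping reads are not given in the sources used here, and the submitters' notes name no role for each tool. Of 55335 identifiers, 55154 matched a GENCODE M21 symbol with the version ignored.

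In R 4.3.3, edgeR 4.0.16 was fitted to all genes (filterByExpr, TMM scaling, quasi-likelihood test, Benjamini-Hochberg over 15687 genes), with group as the only term. Standard errors come from the F statistic and can be too narrow where a group has few counts, as for Dusp14 in PBS. CPM were scaled by TMM factors, and levels per kb used the union of exons. Genes were called at an adjusted p below 0.05 and an absolute log2 fold change above 1. An exact permutation test of 3 against 3 libraries cannot give a p below 0.1 and was not used. The floor was 3 counts per library, and floors and intervals cover counting error only.

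The labels give the same replicate numbers as batches in both groups, which is where the pairing comes from, and the residuals of equally numbered PBS and LPS libraries correlated at -0.0117, 0.0659 and 0.0372. Alternatives were library size alone, DESeq2 size factors, upper quartile scaling, no filter beyond 1 count, 10 counts in every library, DESeq2 1.42.0, limma voom 3.58.1, the replicate block, a test against a log2 fold change of 1, leaving out each library in turn, and another gene length. Scripts were tested on simulated data.

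The members and lists were chosen with earlier results of these data known. Named genes were all members, Tnf and, from each list, up to 2 with the highest and up to 2 with the lowest log2 fold change among called genes that averaged 50 counts or more, and the 3 genes most like the members with the highest and the lowest log2 fold change. Genes named otherwise are said to be so.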

Additional observations from a re-analysis of the deposited data

How the results depend on the processing

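No phosphatase gene changed its call or its sign under any alternative in which it was tested. Over all alternatives the log2 fold change was 6.10 to 6.53 for Dusp1, 6.98 to 7.45 for Dusp2, 2.41 to 2.85 for Dusp4, 7.03 to 7.49 for Dusp5, -2.07 to -1.65 for Dusp6, 0.08 to 0.52 for Dusp7, 4.43 to 4.95 for Dusp8, 0.33 to 0.78 for Dusp10, 2.96 to 3.39 for Dusp16 and 9.57 to 10.41 for Dusp14, which a filter of 10 counts in every library removes, leaving 6 members called higher. With the replicate block, 7 members were higher and 1 was lower, all genes gave 1652 higher and 1624 lower calls beside 1653 and 1624 without it, and it changed no other call counted here. Of all tested genes, 1213 were higher and 2964 lower with library size alone, 1027 were lower with 10 counts in every library, and 922 in a test against a log2 fold change of 1. With library size alone, the calls were 1 MAP kinase and 1 MAP3 kinase or TAB partner higher, and 2 MAP3 kinases or TAB partners, 2 of the other dual-specificity phosphatases and 1 gene of the Sprouty list lower. The higher calls lost there were Mapk8, Map3k14, Map3k5 and Spred1, the last of which left 4 of the Sprouty list higher. Upper quartile scaling gave 2 MAP3 kinases or TAB partners and 1 gene of the Sprouty list lower. With no filter beyond 1 count, 1 other dual-specificity phosphatase (Styxl1) and 1 gene of the Sprouty list were lower, and with 10 counts in every library 3 genes of the Sprouty list were higher, as fewer are tested, and 1 was lower. The lower gene of the Sprouty list was Ptpn7 in each case (log2 fold change -1.40 with library size alone, -1.14 with upper quartile scaling). Leaving out each library in turn gave 0 to 1 lower genes of that list, with 1 (Ptpn7) without PBS replicate 2 or LPS replicate 2. The cause of these shifts was not tested beyond the scaling itself. Depth limits Dusp14 in PBS, where no library held more than 1 count.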

Other observations

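Noncoding transcripts around members were also counted. They were picked after their values were seen. AC122252.1, a sense intronic transcript inside the Dusp1 gene model, had 1, 2 and 0 counts in PBS and 17, 17 and 18 counts in LPS libraries (log2 fold change 4.40, SE 0.55, adjusted p = 1.33e-06, edgeR). The lincRNA AC122252.2, 2390 bp from Dusp1, had 8, 16 and 3 counts in PBS and 107, 101 and 127 in LPS libraries (log2 fold change 4.08, SE 0.28, adjusted p = 3.23e-10). Whether reads of the Dusp1 transcript enter these counts was not tested. Gm37800, at 534644 bp from Dusp10, had 1, 2 and 0 counts in PBS and 16, 18 and 13 in LPS libraries (log2 fold change 4.26, adjusted p = 3.68e-06).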
